A study of Mus musculus with 31 samples.

Results

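Immune checkpoints are pairs of surface proteins through which one cell restrains or licenses the response of another. Cancer cells, macrophages, dendritic cells and stromal cells can carry the ligands, and T cells and NK cells carry most of the receptors. A checkpoint transcript measured in whole tumor tissue may therefore come from cancer cells, from host cells or from both. Interferon gamma released by lymphocytes raises several of the ligands, and glucocorticoids (GC) act through a nuclear receptor on both cancer cells and immune cells.

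The genes described here are immune checkpoint ligands and receptors, 10 of the 39179 genes in the deposited counts, and each symbol matched 1 Ensembl identifier. They were chosen by symbol, with no threshold on a measured value. The ligands are *Cd274* (protein PD-L1), *Pdcd1lg2* (PD-L2), *Cd276* (B7-H3), *Cd80* and *Cd86*. The receptors are *Pdcd1* (PD-1), *Lag3*, *Havcr2* (TIM-3) and *Tigit*. *Ido1* encodes an enzyme that breaks down tryptophan, an amino acid that T cells need.

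The study asked how GC act on mouse melanoma and its immune environment. Line 20967 came from a melanoma of a mouse with an inducible Nras G12D allele behind a stop cassette (LSL) and with Tyr::CreERT2, on the C57BL/6 background, so that Cre is driven by the promoter of the pigment gene *Tyr*. The GR KO line is a derivative of 20967 in which the GC receptor gene *Nr3c1* was edited with Cas9 protein and a guide RNA. The names of its culture libraries give 1 clone code, and those of its tumor libraries give none. The effect of the edit and other properties of a clone therefore cannot be told apart. Parental or GR KO cells grew in the skin of wild-type C57BL/6 mice whose ages the labels do not give, and the host cells in all 20 tumors carried an intact *Nr3c1*. There were 5 tumors in each of 4 groups, parental control, parental GC, GR KO control and GR KO GC. The GC was clobetasol propionate, given as a 0.05% ointment 3 times a week, and the methods name Cetraben cream as the topical control. The 11 cultures were 3 of parental cells in DMSO, 2 of parental cells in clobetasol propionate, 3 of GR KO cells in DMSO and 3 of GR KO cells in clobetasol propionate. The methods give 48 hours for cultures collected for RNA. The library names state 1 µM of the drug, and the treatment labels state 10 µM.

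RNA was read from the 3′ ends of transcripts, 1 tag per molecule copied, and the deposited values are read counts per gene. Tumor libraries held between 15528066 and 26386770 counts and culture libraries between 14441166 and 22463188. Levels are given here as CPM, the usual measure in which the counts of a gene are divided by those of its library, scaled by TMM factors within tumors and within cultures, each group with its SD. A count of 3 in 1 library was taken as the floor, which corresponds to between 0.114 and 0.208 CPM before scaling, and floors cover counting error only. Genes with at least 0.5 CPM in at least 3 samples were tested, 15919 in tumors and 12525 in cultures. A gene was called a DEG at an adjusted p under 0.05 from edgeR and a fold change of at least 1.5.

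*Nr3c1* transcripts were read in all groups. In cultures the level was 33.2, 30.0 and 35.6 CPM for the parental line in DMSO and 39.5 and 33.4 in GC, against 24.8, 21.0 and 16.4 for the GR KO line in DMSO and 20.9, 22.5 and 13.1 in GC. No GR KO culture reached a parental one. Parental control tumors had 63.4, 57.1, 44.9, 55.6 and 52.2 CPM and GR KO control tumors 20.7, 27.3, 31.4, 31.8 and 23.5, with no overlap. In GC-treated tumors the parental values of 53.4, 24.4, 48.2, 37.3 and 49.8 CPM and the GR KO values of 47.9, 21.7, 58.0, 32.5 and 49.4 overlapped. A tag at the 3′ end lies outside the part that a guide edits and still counts a transcript that encodes no protein, so these levels check nothing about the knockout, which the methods checked at the protein level. *Tsc22d3*, a gene that the receptor activates, had a log2 fold change of 3.09 with GC in parental cells and -0.05 in GR KO cells, and in tumors 2.34 when parental and 1.77 when GR KO, a difference of 0.57 that was not called (adjusted p = 0.347 from edgeR). *Lrrc32*, which encodes a surface protein that holds latent TGF-β, changed with GC by -1.48 (log2) in the parental and -0.03 in the GR KO tumors, and in parental cells by -1.82 (adjusted p = 0.0987 from edgeR, called by DESeq2 with 0.00136) and in GR KO cells by -0.66 (adjusted p = 0.976 from edgeR). In DMSO its level was already lower in GR KO cells, 2.51 ± 1.26 CPM (SD, n = 3) against 19.0 ± 5.11 in parental cells (n = 3). That log2 difference was -2.92 (adjusted p = 0.000788 from edgeR, called). Parental cells in GC had 5.38 ± 0.195 CPM (n = 2), so the smaller GC change in GR KO cells started from a lower level. The interaction for *Lrrc32* in tumors was -1.45 (adjusted p = 0.0820 from edgeR) and did not pass with edgeR, but was called by DESeq2 on all libraries (-1.42, adjusted p = 0.0146) and by edgeR without GR KO control tumor 4 (-1.42, adjusted p = 0.0309).

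The label of a melanoma line was compared with 10 melanocyte genes. *Dct*, *Mlana*, *Sox10* and *Tyr* were at 0 in each of the 11 cultures, and *Tyr* was also at 0 in the 20 tumors. The summed level of the melanocyte list was between 14.3 and 22.8 CPM in cultures and between 55.6 and 142 CPM in tumors, with *Mitf* the most abundant gene in tumors and in parental cultures and *Gpnmb* in GR KO cultures. These pigment-cell markers thus do not identify the line in these libraries, and *cancer cell* is used here for what the cultures contain.

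Of the 10 genes, 7 passed the filter in tumors, and *Lag3*, *Tigit* and *Ido1* did not. In cultures *Cd274*, *Cd276*, *Havcr2* and *Cd80* passed. *Pdcd1lg2*, *Pdcd1*, *Cd86* and *Tigit* were at 0 in the 11 cultures.

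**Figure D1:**
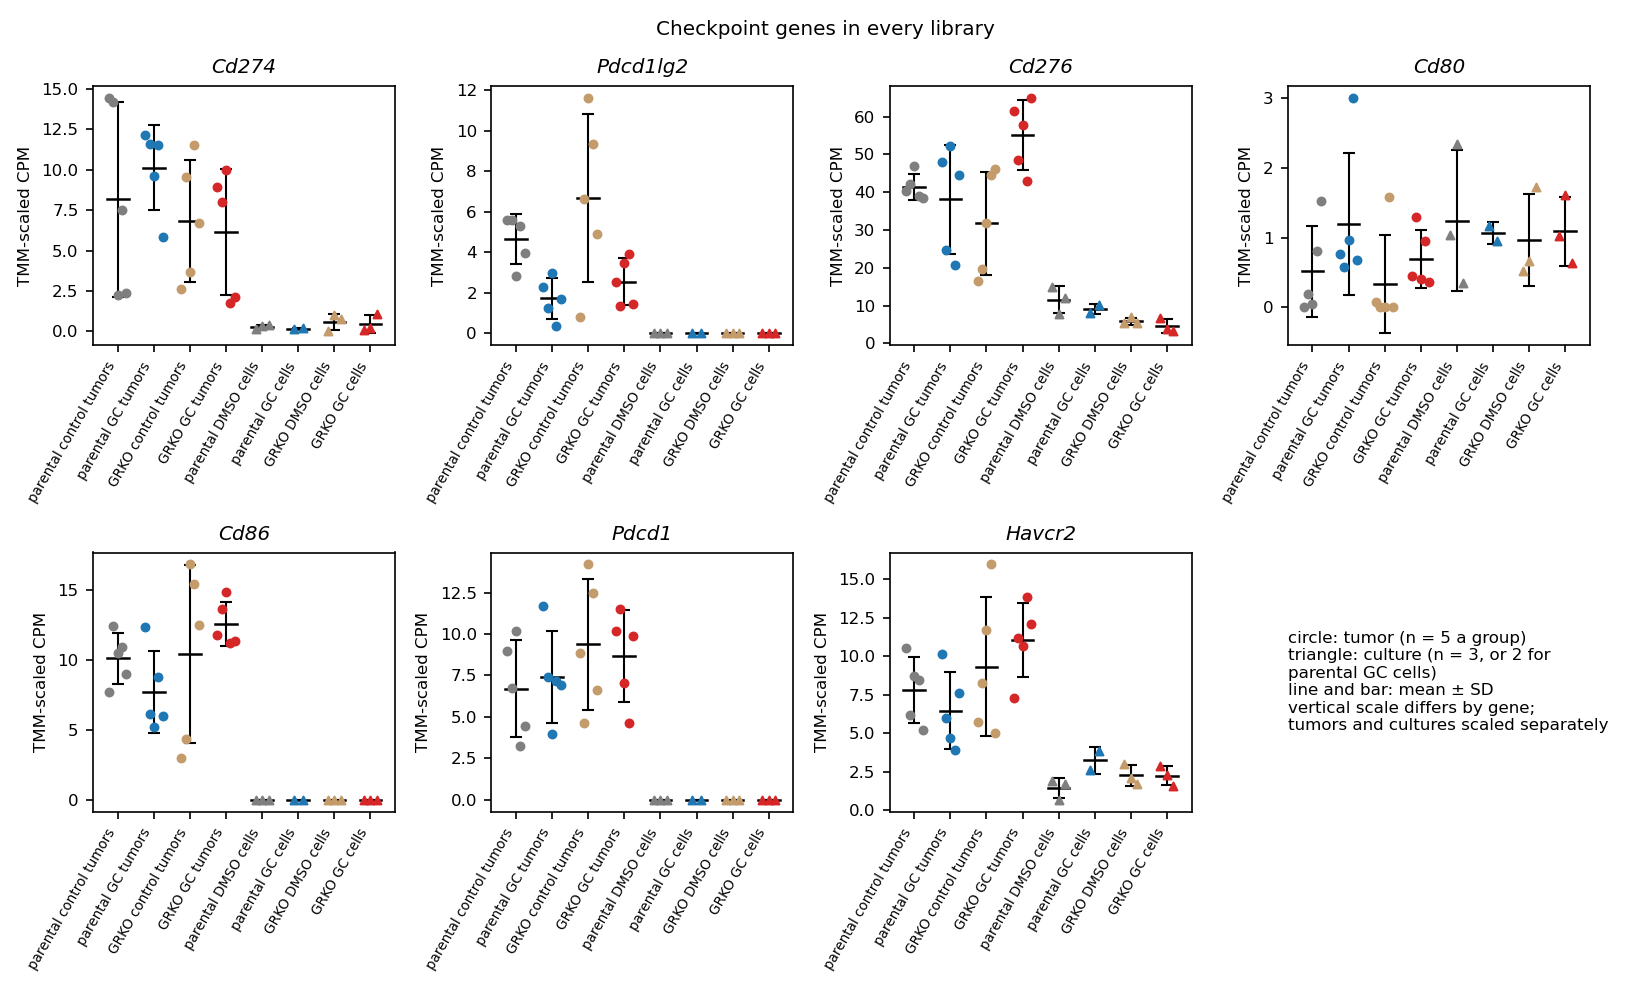
TMM-scaled CPM of the 7 checkpoint genes tested in tumors (vertical axis, a separate scale for each gene) in 20 tumors (circles) and 11 cultures (triangles), with mean and SD for each of 8 groups. *Pdcd1lg2*, *Cd86* and *Pdcd1* are at 0 in every culture, *Cd276* reaches 15.0 CPM there, and *Cd80* is the gene whose cultures lie as high as its tumors.

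*Cd274* encodes the main ligand of PD-1. Its level was 14.5, 14.2, 2.26, 7.52 and 2.38 CPM in the parental control tumors and 12.1, 11.6, 9.59, 11.5 and 5.81 in the parental GC tumors. The control tumors fell into a high pair, a low pair and 1 between, and the GC tumors lay inside their range. GR KO control tumors had 2.64, 9.56, 3.69, 11.5 and 6.70 CPM and GR KO GC tumors 8.92, 7.98, 9.98, 1.75 and 2.13, again with a wide spread and overlap. The log2 fold change with GC was 0.31 (95% confidence interval -0.80 to 1.43, adjusted p = 0.843 from edgeR) in parental tumors and -0.15 (-1.27 to 0.96, adjusted p = 0.894 from edgeR) in GR KO tumors. Exact permutation tests of 5 against 5 gave a two-sided p of 0.310 and 0.659. In bulk tissue, fewer cells of a type and less RNA per cell cannot be told apart, here or for the other genes.

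In cultures *Cd274* was read in every library but with between 1 and 21 counts. The levels were 0.130, 0.308 and 0.411 CPM in parental cells with DMSO, 0.138 and 0.181 with GC, and for the GR KO line 0.0519, 1.00 and 0.754 in DMSO and 0.0571, 0.189 and 1.07 in GC. Of the 11 libraries, 7 were above the floor, and the highest values were in GR KO cultures of both treatments. Control tumors were 30.2-fold above DMSO cultures in the parental line and 10.2-fold in the GR KO line in unscaled CPM (adjusted p = 0.000102 and 0.000967 from edgeR). The order of the group means was parental GC, parental control, GR KO control and GR KO GC tumors, then the cultures, and neighboring tumor groups did not differ beyond their SD of between 2.61 and 6.01 CPM.

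*Pdcd1lg2* encodes the other ligand of PD-1 and lies 22823 bases after *Cd274* on the same strand. Parental control tumors had 5.60, 5.57, 2.83, 5.30 and 3.95 CPM and parental GC tumors 2.30, 1.26, 2.96, 0.345 and 1.71. Of the 5 GC tumors, 4 lay below each control tumor, and the remaining one lay just above the lowest control. The GR KO control tumors had 0.806, 6.63, 11.6, 9.35 and 4.92 CPM and the GR KO GC tumors 2.54, 1.35, 3.46, 3.92 and 1.45. The 5 treated tumors lay below the control median, but GR KO control tumor 1 lay below all of them.

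The log2 fold change of *Pdcd1lg2* with GC was -1.43 (95% confidence interval -2.59 to -0.28, adjusted p = 0.241 from edgeR) in parental tumors and -1.39 (-2.53 to -0.24, adjusted p = 0.127 from edgeR) in GR KO tumors. Neither passed the threshold over all genes tested, and the unadjusted p was 0.0172 and 0.0197. The two-sided exact permutation p was 0.0159 in parental and 0.127 in GR KO tumors. The difference between the effects of the genotypes was -0.05 (-1.61 to 1.52, adjusted p = 0.984 from edgeR). In order of mean level came GR KO control (6.66 ± 4.16 CPM, SD, n = 5), parental control (4.65 ± 1.22), GR KO GC (2.54 ± 1.16) and parental GC tumors (1.71 ± 0.998), and the step from parental control to GR KO GC was the only one between neighbors larger than both SDs. All 11 cultures were at 0. In unscaled CPM, control tumors were at least 26.4-fold above a floor of 3 counts per library in the parental line. In the GR KO line they were at least 39.5-fold above it. The transcript was therefore read in host-containing tissue and not in cultured cancer cells of either line at this depth.

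*Cd276* encodes a B7-family protein found on cancer cells and stroma whose receptor is unsettled. Parental control tumors lay close together at 40.4, 42.3, 47.0, 39.0 and 38.4 CPM. Parental GC tumors had 48, 24.8, 52.3, 20.7 and 44.5 CPM, 3 within or above the control range and 2 well below it. GR KO control tumors had 16.4, 19.7, 31.9, 44.4 and 46.1 CPM and GR KO GC tumors 61.4, 48.5, 57.8, 42.9 and 65.0. Of the 5 treated GR KO tumors, 4 lay above each GR KO control tumor, and the other lay below the 2 highest controls.

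With GC the log2 fold change of *Cd276* was 0.80 (95% confidence interval 0.23 to 1.36, adjusted p = 0.0787 from edgeR) in GR KO tumors and -0.12 (-0.68 to 0.44, adjusted p = 0.889 from edgeR) in parental tumors. The two-sided exact permutation p was 0.0238 and 0.452. The test of the difference between genotypes gave -0.92 (-1.72 to -0.12) with an unadjusted p of 0.0262 and an adjusted p of 0.192 from edgeR. The difference in GR KO tumors crossed the threshold without GR KO control tumor 4 (0.96, edgeR adjusted p = 0.0297) or without GR KO control tumor 5 (0.97, edgeR adjusted p = 0.0494), the controls with the highest values. GR KO GC tumors (55.1 ± 9.18 CPM, SD, n = 5) led the order, followed by parental control (41.4 ± 3.45), parental GC (38.1 ± 14.3) and GR KO control tumors (31.7 ± 13.7). Below the top group, neighbors did not differ beyond their spread.

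Cancer cells in culture also expressed *Cd276*, with at least 50 counts in each library. Parental cells had 15.0, 7.76 and 11.9 CPM in DMSO and 8.07 and 10.1 in GC, and GR KO cells had 5.40, 6.92 and 5.28 in DMSO and 6.73, 3.83 and 3.16 in GC. Each parental culture lay above each GR KO culture, and the treatments overlapped within each line. GR KO cells in DMSO were lower than parental cells by a log2 difference of -0.98 (95% confidence interval -1.68 to -0.27), which did not pass with edgeR (adjusted p = 0.0865) and passed with DESeq2 (-0.98, adjusted p = 0.0333). Tests of 3 cultures against 3 allow no exact permutation p under 0.1. In unscaled CPM, control tumors stood 3.76-fold above DMSO cultures in the parental line and 4.81-fold in the GR KO line (adjusted p = 7.97e-05 and 1.48e-06 from edgeR). Tumor and culture libraries came from different material, and the methods describe RNA extraction for sequencing from tumors only, so effects of handling cannot be told apart from this difference.

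*Cd80* encodes a ligand that stimulates T cells through CD28 and restrains them through CTLA-4. It was near the floor in tumors, at 0, 0.192, 0.0514, 0.812 and 1.53 CPM in parental control and 0.766, 0.576, 0.972, 3.00 and 0.684 in parental GC tumors. GR KO control tumors had 0.0733, 0, 0, 1.58 and 0 CPM and GR KO GC tumors 0.446, 1.29, 0.405, 0.953 and 0.363. A single GR KO control tumor, number 4, held 41 of the 42 counts of its group, while the treated tumors had counts in each library. The log2 fold change with GC was 1.19 (95% confidence interval -1.40 to 3.79) in parental and 0.99 (-1.61 to 3.6) in GR KO tumors, with adjusted p of 0.719 and 0.667 from edgeR. Leaving out 1 library moved the parental value between 0.52 (without parental GC tumor 4) and 2.15 (without parental control tumor 5), not called in any of these fits. Without GR KO control tumor 4 the GR KO value was 4.90 (adjusted p = 0.0296 from edgeR), the difference between GR KO and parental control tumors moved from -0.59 to -4.50 (adjusted p = 0.0485 from edgeR), and that between GR KO control tumors and DMSO cultures from -1.42 to -5.44 (adjusted p = 0.00101 from edgeR). These fits compare against tumors with at most 1 count, so their size depends on the prior count of the fit and is no bound.

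The cultured cells expressed *Cd80* at 1.04, 2.34 and 0.353 CPM in parental DMSO, 1.17 and 0.949 in parental GC, 0.519, 0.668 and 1.72 in GR KO DMSO and 1.03, 1.61 and 0.631 in GR KO GC cultures. Every culture had at least 6 counts, and the 4 groups overlapped. The unscaled level in control tumors was 0.440 of that in DMSO cultures for the parental line and 0.364 for the GR KO line (adjusted p = 0.387 and 0.314 from edgeR). For the parental line, leaving out 1 library moved the fitted log2 difference of -1.29 between -2.31 and -0.46, not called in any of these fits. Among the 7 genes tested in the fit of tumors with cultures, *Cd80* was thus the one not called higher in tumors.

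*Cd86* encodes a ligand of the same 2 receptors, CD28 and CTLA-4, and is carried by dendritic cells, macrophages and B cells. Its level was 7.71, 12.4, 10.4, 10.9 and 8.98 CPM in parental control and 12.4, 6.12, 5.22, 8.77 and 5.98 in parental GC tumors. Of the treated tumors, 3 lay below each control and 1 reached the top of the control range. GR KO control tumors had 3.00, 4.30, 16.8, 15.4 and 12.5 CPM, 2 low and 3 high, and GR KO GC tumors had 11.8, 13.6, 14.8, 11.2 and 11.4, all above the 2 low controls and below the highest one. The GC log2 fold change was -0.39 (95% confidence interval -1.16 to 0.37, adjusted p = 0.678 from edgeR) in parental tumors and 0.27 in GR KO tumors (adjusted p = 0.694 from edgeR), with a difference between genotypes of -0.66 (adjusted p = 0.490 from edgeR). Between GC-treated tumors, GR KO exceeded parental by 0.71 (-0.06 to 1.47, adjusted p = 0.478 from edgeR), and the two-sided exact permutation p was 0.0317 with 5 of 5 above the parental median. There was no count in any culture. In unscaled CPM, control tumors were at least 57.5-fold above the floor of 3 counts per library in the parental line. In the GR KO line they were at least 61.7-fold above it.

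*Pdcd1* encodes PD-1, the receptor through which PD-L1 and PD-L2 restrain activated T cells. Parental control tumors had 8.98, 6.72, 10.2, 3.25 and 4.43 CPM and parental GC tumors 11.7, 7.38, 3.98, 7.14 and 6.90. GR KO control tumors had 8.87, 4.66, 14.2, 12.5 and 6.64 CPM and GR KO GC tumors 10.2, 11.5, 7.06, 4.66 and 9.90. The ranges of the 4 groups overlapped almost entirely. The log2 fold change with GC was 0.14 (95% confidence interval -0.63 to 0.92) in parental and -0.11 (-0.89 to 0.66) in GR KO tumors, and the two-sided exact permutation p was 0.667 and 0.833. Mean levels ran from 9.37 ± 3.97 CPM (SD, n = 5) in GR KO control through 8.67 ± 2.77 in GR KO GC and 7.42 ± 2.76 in parental GC to 6.71 ± 2.93 in parental control tumors, with no step beyond the spread. No culture had a count. In unscaled CPM, control tumors were at least 38.1-fold higher in the parental and at least 54.4-fold higher in the GR KO line than the floor.

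*Havcr2* encodes TIM-3, a receptor found on exhausted T cells and also on macrophages and dendritic cells. Parental control tumors had 10.6, 6.19, 8.75, 8.44 and 5.22 CPM and parental GC tumors 10.2, 5.97, 4.69, 3.89 and 7.64, with overlap. GR KO control tumors had 5.72, 8.24, 11.7, 16.0 and 5.04 CPM and GR KO GC tumors 7.31, 11.2, 10.7, 13.9 and 12.1. The treated GR KO tumors lay inside the range of their controls, and 4 of them lay above each parental GC tumor. The log2 fold change with GC was -0.28 in parental (95% confidence interval -0.98 to 0.43, adjusted p = 0.771 from edgeR) and 0.24 in GR KO tumors (adjusted p = 0.704 from edgeR). GR KO GC tumors exceeded parental GC tumors by 0.77 (0.07 to 1.47, adjusted p = 0.393 from edgeR), with a two-sided exact permutation p of 0.0238 and 5 of 5 above the parental median. The interaction of genotype and GC was -0.51 (adjusted p = 0.570 from edgeR).

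Unlike *Pdcd1*, *Havcr2* was read in all cultures, with between 11 and 85 counts. Parental cells had 1.89, 0.677 and 1.70 CPM in DMSO and 2.62 and 3.84 in GC, with both GC cultures above the 3 DMSO cultures. So few cultures can separate completely by chance, and how many of all genes did so was not counted. GR KO cells had 3.01, 2.10 and 1.67 CPM in DMSO and 2.85, 2.32 and 1.58 in GC, which overlapped. The log2 fold change with GC was 1.19 in parental cells (95% confidence interval 0.13 to 2.24, unadjusted p = 0.0304, adjusted p = 0.502 from edgeR) and -0.01 in GR KO cells, and the difference of 1.19 had an interval from -0.22 to 2.61 and an adjusted p of 0.576 from edgeR. In unscaled CPM, control tumors were 5.75-fold above DMSO cultures in the parental and 3.75-fold in the GR KO line (adjusted p = 6.04e-05 and 0.000274 from edgeR).

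*Lag3*, a receptor that binds MHC class II and other ligands on T cells, had 33 counts in all 20 tumors together. They fell in 6 tumors, and GR KO GC tumor 4 alone held 26 of them and was the only tumor above the floor. In cultures, 5 counts were read in 1 library, the parental DMSO culture 3. *Tigit*, a T cell and NK cell receptor for the poliovirus receptor, had 7 counts in parental GC tumor 3 and 34 in GR KO GC tumor 2 and none in the other 18 tumors or in the cultures. Neither receptor passed the filter, so no group difference was tested. In the annotation the last exon of *Lag3* spans 240 bases and that of *Tigit* 368, against 622 or more for the other 8 genes, and the part of this in their counts was not tested.

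*Ido1* had 4 counts in parental GC tumor 3 and 12 in GR KO control tumor 5, and none in the other 18 tumors. The 3 counts in cultures were spread over 2 libraries, neither above the floor. The enzyme was thus near or under the limit of these libraries in each of the 8 groups, and no fold is given.

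In parental tumors, GC treatment made 0 of the 7 tested checkpoint genes a DEG with edgeR, beside 0.779% of all genes tested, and 0 with DESeq2, beside 2.36%. An unadjusted p under 0.05 was found for 1 of the 7, *Pdcd1lg2*, with both tools, beside 2249 of 15919 genes with edgeR and 2447 with DESeq2. In GR KO tumors the count was 0 with edgeR, beside 6.42% of all genes, and 0 with DESeq2, beside 11%. There *Cd276* and *Pdcd1lg2* had an unadjusted p under 0.05 with both, beside 3893 of 15919 genes with edgeR and 4159 with DESeq2. For the interaction of genotype and GC in tumors, edgeR called 0 of 7 (0.195% of all genes) and DESeq2 0 of 7 (4.92%). *Cd276* was under an unadjusted 0.05 in each, beside 3192 of 15919 genes with edgeR and 3408 with DESeq2. GR KO and parental control tumors differed in 0 of 7 by edgeR (2.25%) and 0 by DESeq2 (6.29%), and none of the 7 had an unadjusted p under 0.05 with either. GC-treated GR KO and parental tumors differed in 0 of 7 by edgeR (0.634%) and 0 by DESeq2 (1.84%), with *Havcr2* under an unadjusted 0.05 by both. At each of these percentages of called genes, fewer than 1 of 7 genes would be called.

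The calls in tumors rested partly on single libraries. Without GR KO control tumor 4, edgeR called 2411 genes for GC in GR KO tumors in place of 1022, 1284 in place of 31 for the interaction and 1762 in place of 358 between the control tumors. Over the 7 genes tested, the median log2 fold change with GC was -0.12 in parental tumors, with 3 higher and 4 lower, beside 0.00 over all genes. In GR KO tumors it was 0.24, with 4 higher and 3 lower, beside 0.05.

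In cultures, 4 of the genes were tested. GC in parental cells made 0 of 4 a DEG with edgeR (0.878% of all genes) and 0 with DESeq2 (2.00%), with *Havcr2* under an unadjusted p of 0.05 in both. In GR KO cells the count was 0 with edgeR (0% of all genes) and 0 with DESeq2 (0%), and none of the 4 had an unadjusted p under 0.05. The interaction gave 0 of 4 with edgeR (0.295%) and 0 of 4 with DESeq2 (1.02%), again with none under an unadjusted 0.05. Between GR KO and parental cells in DMSO, edgeR called 0 of 4 (8.22%) and DESeq2 called 1 of 4, *Cd276* (11.4%), which had an unadjusted p under 0.05 with both. Against DMSO cultures, 6 of 7 genes were called in parental control tumors by edgeR (46.7% of all genes) and 6 of 7 by DESeq2 (48.4%). In the GR KO line it was also 6 of 7 by edgeR (54.8%) and 6 of 7 by DESeq2 (56.0%). All 6 were higher in tumors, as were 4955 of the 7595 genes called by edgeR in the parental and 5560 of 8917 in the GR KO line. Since 3 of these genes passed the filter through tumors alone, having no count in cultures, they could only differ in this direction.

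**Figure D2:**
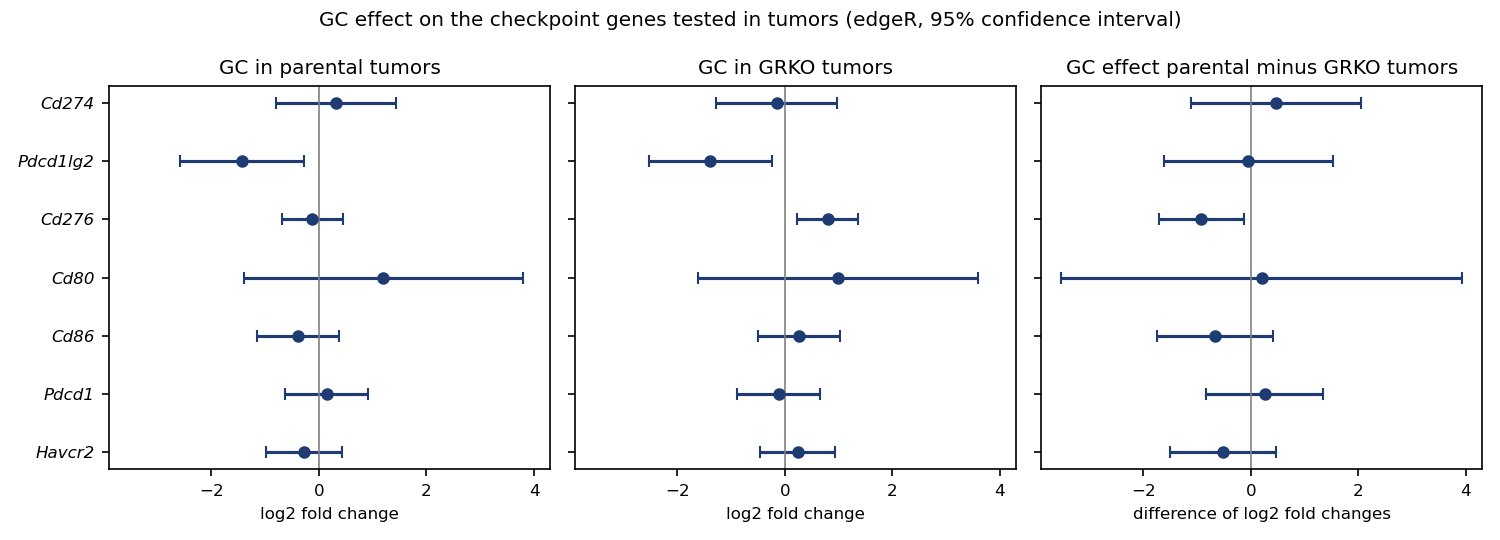
Log2 fold change with GC (horizontal axis) of the 7 checkpoint genes tested in parental tumors (left), in GR KO tumors (middle) and the difference between them (right), from edgeR with 95% confidence intervals over 5 tumors a group. The intervals of *Pdcd1lg2* lie below 0 in both genotypes and that of *Cd276* lies above 0 in GR KO tumors alone, and no value passed the adjusted threshold.

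Markers of host cells that can carry these genes were followed beside them. The summed level of 16 T cell genes was 430, 330, 318, 387 and 226 CPM in parental control, 304, 278, 190, 337 and 227 in parental GC, 382, 421, 338, 584 and 319 in GR KO control and 200, 302, 279, 180 and 193 in GR KO GC tumors. Each GR KO GC tumor lay below each GR KO control tumor, and the parental groups overlapped. *Thy1* was the most abundant gene of the list in the 4 tumor groups, *Trac* was at 0 in each, and the sum in the cultures was at most 0.276 CPM with no gene above the floor in every library of a group. With GC, edgeR called 0 of 15 genes tested in parental tumors (median log2 fold change -0.50, 6 with an unadjusted p under 0.05, 4 called by DESeq2). In GR KO tumors it called 0 up and 6 down (median -0.91), the largest changes being *Foxp3* (-2.22), *Cd2* (-1.94), *Cd247* (-1.73) and *Cd6* (-1.58). The parental count was 2 without parental GC tumor 1.

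The mean log2 ratio of *Pdcd1* to the T cell sum was -5.75 ± 0.70 (SD, n = 5) in parental control, -5.22 ± 0.37 in parental GC, -5.53 ± 0.68 in GR KO control and -4.77 ± 0.50 in GR KO GC tumors. The GC differences of 0.52 and 0.75 stood beside pooled SDs of 0.56 and 0.60, and the groups overlapped in both genotypes. With a shorter T cell list, without *Foxp3*, *Il2ra* and *Thy1*, they were 0.71 and 1.29. For *Havcr2* the mean log2 ratio was -5.44 ± 0.20 in parental control, -5.42 ± 0.63 in parental GC, -5.55 ± 0.52 in GR KO control and -4.39 ± 0.50 in GR KO GC tumors. In GR KO tumors the 5 treated tumors lay above each control, by 1.17 on average, while in parental tumors the difference was 0.02. The shorter list gave 1.70 in place of 1.17. Against the monocyte and macrophage sum the log2 ratio of *Havcr2* changed with GC by -0.61 in parental tumors (pooled SD 0.61) and by 0.68 in GR KO tumors (pooled SD 0.64), with overlap in both and 2 of 5 treated GR KO tumors above each control. With the pan-leukocyte list these values were -0.09 and 1.27. *Havcr2* was also read in cultured cancer cells, and its source within the tumor was not tested.

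**Figure D3:**
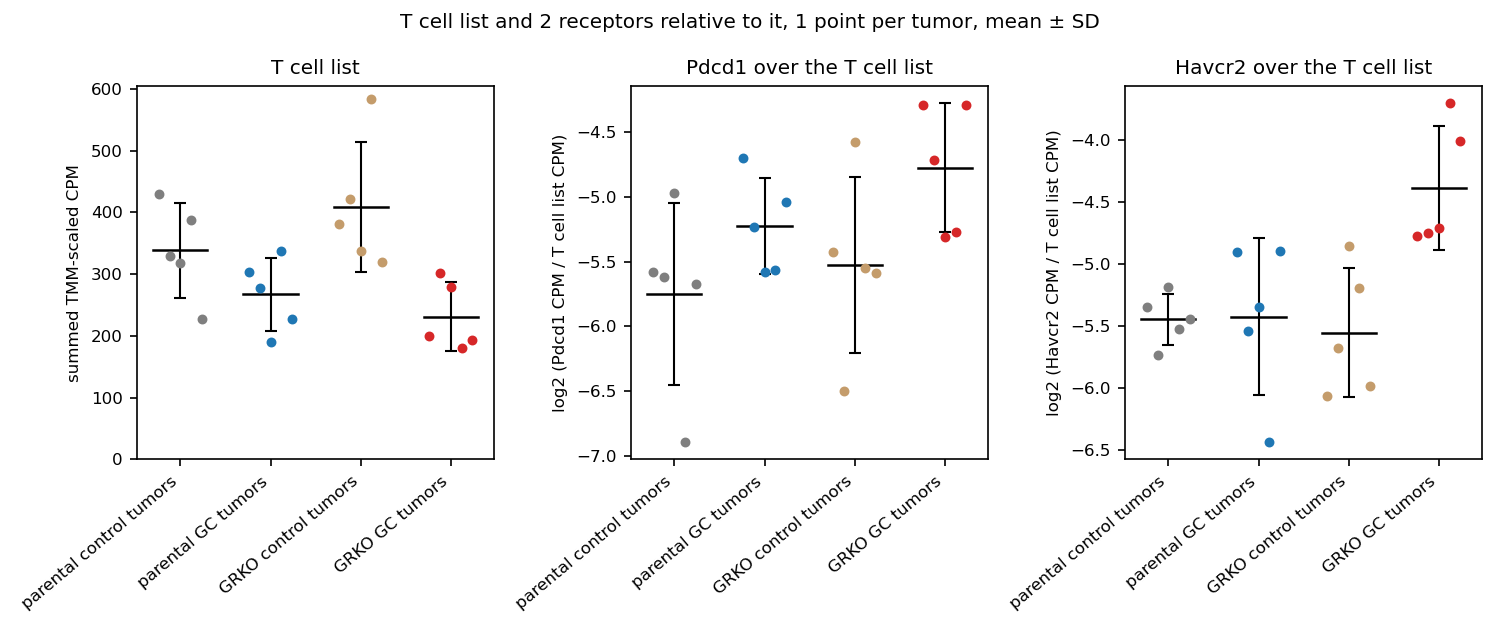
Summed TMM-scaled CPM of the T cell list (left) and log2 ratio of *Pdcd1* (middle) and of *Havcr2* (right) to that sum, 1 point per tumor with mean and SD of 5 tumors. The GR KO GC tumors have the lowest mean T cell sum, 231 CPM, and their *Havcr2* ratios lie above those of the other 3 groups.

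The 13 monocyte and macrophage genes in the counts (of 14 listed, *Adgre1* being absent) summed to 5776 ± 974 CPM (SD, n = 5) in parental control, 7281 ± 2130 in parental GC, 8174 ± 1186 in GR KO control and 6521 ± 1400 in GR KO GC tumors, *C1qa* being the most abundant. In cultures the group means were between 2.25 and 3.87 CPM, with 2 genes above the floor in every library. With GC, 0 of 13 were DEGs in parental tumors (edgeR median 0.15, 3 with an unadjusted p under 0.05, 0 by DESeq2) and 1 in GR KO tumors (*Mrc1*, log2 fold change 1.20, list median 0.03), a count that was 0 without GR KO control tumor 1 and 2 without GR KO control tumor 4. The log2 ratio of *Pdcd1lg2* to this sum changed with GC by -2.0 in parental tumors (pooled SD 1.15), with 4 of 5 below each control, and by -0.74 in GR KO tumors (pooled SD 1.35), with overlap. For *Cd274* the ratio changed by 0.39 and 0.05 with pooled SDs of 0.85 and 1.04. For *Cd86* it changed by -0.74 in parental tumors (pooled SD 0.41) and by 0.91 in GR KO tumors (pooled SD 0.96). With the pan-leukocyte list in place of the myeloid one, the parental and GR KO values were -1.48 and -0.16 for *Pdcd1lg2*, 0.91 and 0.63 for *Cd274* and -0.22 and 1.49 for *Cd86*.

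Dendritic cells, which can carry PD-L2 and CD86, were followed with 11 genes. Their sum was 1377 ± 201 CPM in parental control, 831 ± 304 in parental GC, 1353 ± 203 in GR KO control and 1019 ± 132 in GR KO GC tumors (SD, n = 5 each). *Fscn1* made up most of it and was also at 429 CPM or more in each culture group, so the sum counts cancer cells too. Of 10 genes tested, *Ccl22* fell in parental tumors (-1.79) and *Ccl22* (-2.24), *Itgax* (-1.80), *Batf3* (-1.66) and *Zbtb46* (-0.99) fell in GR KO tumors, with medians of -0.96 and -1.17. The parental count of 1 was 2 without parental GC tumor 1. The part of dendritic cell number in the *Pdcd1lg2* level, whose log2 fold changes with GC were below 0 and not called, was not tested.

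Among 12 NK and cytotoxic genes GC gave 0 DEGs in parental tumors (median -0.62, 2 with an unadjusted p under 0.05, 0 by DESeq2) and 1 in GR KO tumors (*Tbx21*, -1.32, median -0.92), or 0 without GR KO control tumor 1. *Nkg7* was the most abundant in tumors, and *Eomes* was above the floor in all cultures. Of 8 pan-leukocyte genes, *Coro1a* fell in parental tumors (-1.29, median -0.35) and *Laptm5* (-1.34), *Cd52* (-1.08) and *Rac2* (-1.05) in GR KO tumors (median -0.45), counts that were 0 without parental control tumor 1 and 1 without GR KO GC tumor 3. *Laptm5* or *Cd52* led this list in tumors, and *Arhgdib* led it in cultures, where it made a sum of between 238 and 340 CPM. Fibroblast genes, led by *Col3a1* or *Col1a1*, had 0 DEGs of 7 in parental tumors (median 0.27, 4 with an unadjusted p under 0.05, 1 by DESeq2) and 4 up in GR KO tumors, *Col1a2* (1.83), *Pdgfra* (1.17), *Col3a1* (1.03) and *Col1a1* (0.64), with a median of 0.64. These counts were 1 without parental control tumor 2 and 2 without GR KO control tumor 1. The fibroblast sum was 7148 ± 299, 9622 ± 1503, 4792 ± 1140 and 9619 ± 1796 CPM in parental control, parental GC, GR KO control and GR KO GC tumors (SD, n = 5 each) and at most 302 CPM in a culture, where at least 4 of the 7 genes were above the floor. With GC each fibroblast sum lay above each control of its genotype, for both genotypes. *Cd276* had a GC log2 fold change of -0.12 when parental and 0.80 when GR KO, neither of them called. Over the 20 tumors, Pearson's r of *Cd276* with the fibroblast sum was 0.709. The part of fibroblasts in the *Cd276* level was not tested.

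For the remaining tissue lists, endothelial genes (led by *Kdr*) had 0 DEGs of 7 with GC in parental tumors (median -0.81, 3 with an unadjusted p under 0.05, 1 by DESeq2) and *Kdr* down in GR KO tumors (-1.32, median -0.60). Keratinocyte genes (led by *Krt14*) had *Sprr1a* down in parental tumors (-1.51, median of 6 genes -0.19) and *Krt10* (2.13) and *Krt1* (1.85) up and *Krt14* (-1.42) and *Sprr1a* (-1.10) down in GR KO tumors (median -0.39). Muscle genes (led by *Acta1*) had 0 of 5 in parental tumors (median 0.49, 2 with an unadjusted p under 0.05, 0 by DESeq2) and *Myh4* down in GR KO tumors (-1.33, median -0.62). Melanocyte genes had 0 of 8 in both (medians -0.51 and 0.20, 2 and 0 with an unadjusted p under 0.05, 0 by DESeq2). Of these counts, the endothelial one in parental tumors was 1 and the keratinocyte one 0 without parental control tumor 3, and without GR KO control tumor 1 the keratinocyte count in GR KO tumors was 2 and the muscle count 0.

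The partners of the checkpoint genes and the rest of their pathway were followed with 8 lists. Of 5 genes of the PD-1 pathway, 0 were DEGs with GC in parental tumors (median -0.25, 2 with an unadjusted p under 0.05, 1 by DESeq2), and *Ptpn11*, which encodes a phosphatase that PD-1 recruits, rose in GR KO tumors (0.89, median 0.89). In the CD28 and B7 family, with 9 genes tested, *Btla* fell in parental (-1.75, median -0.60) and *Icos* in GR KO tumors (-1.45, median -0.54). *Cd28* and *Ctla4*, the receptors of CD80 and CD86, had GC log2 fold changes of -0.39 and -0.39 in parental and -1.35 and 0.01 in GR KO tumors, none called. The TIGIT family had 0 of 6 in both genotypes (medians -0.21 and -0.04, 1 each with an unadjusted p under 0.05, 0 and 1 by DESeq2), with -0.20 and 0.05 for *Pvr*, the ligand of TIGIT. Among 6 ligands of TIM-3 and LAG-3, none was called in parental tumors (median -0.26, 0 with an unadjusted p under 0.05, 0 by DESeq2), *Lgals3* fell in GR KO tumors (-1.29, median -0.24), and the TIM-3 ligand *Lgals9* had -0.35 and -0.19. Without 1 library, *Ptpn11* lost its call (GR KO control tumor 3), the PD-1 pathway had 2 calls (GR KO control tumor 4), the CD28 and B7 family 0 in parental tumors (parental control tumor 1) and the TIGIT family 1 in GR KO tumors (GR KO GC tumor 2).

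The costimulatory TNF receptor family had 0 of 8 genes called with GC in parental tumors (median -0.83, 5 with an unadjusted p under 0.05, 0 by DESeq2). In GR KO tumors 4 fell, *Tnfrsf4* (-2.29), *Tnfrsf18* (-2.12), *Cd27* (-1.90) and *Cd40* (-0.94), with a median of -1.42. Myeloid checkpoints such as *Cd47* had 0 of 7 in both (medians -0.46 and -0.05, 1 each with an unadjusted p under 0.05, 0 by DESeq2). Among genes tied to tryptophan, arginine and adenosine metabolism, the group of *Ido1*, 0 of 7 were called in parental tumors (median -0.40, 1 with an unadjusted p under 0.05, 1 by DESeq2). In GR KO tumors *Adora2a* (-2.04), which encodes an adenosine receptor and no enzyme, *Wars* (-0.82) and *Entpd1* (-0.79) fell (median -0.41). Regulators of T cell exhaustion had 0 of 8 in both (medians -0.52 and 0.03, 1 each with an unadjusted p under 0.05, 1 each by DESeq2). The interferon gamma axis, upstream of several ligands, had 0 of 22 in parental tumors (median -0.59, 10 with an unadjusted p under 0.05, 2 by DESeq2) and *Ciita* (-2.35) and *Irf8* (-1.09) down in GR KO tumors (median -0.30). Without parental GC tumor 1 the parental counts were 1 for the TNF receptors and 2 for the interferon gamma axis. In GR KO tumors the TNF receptor count was 2 without control tumor 2, the metabolic count 1 without control tumor 1, the exhaustion count 1 without control tumor 5 and the interferon gamma count 4 without GC tumor 2, and the exhaustion count in parental tumors was 1 without control tumor 2.

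Over the 167 different genes of these lists tested in tumors, 4 fell and 0 rose with GC in parental tumors, beside 124 of 15919 genes tested, and 29 fell and 8 rose in GR KO tumors, beside 1022 of 15919, by edgeR. DESeq2 called 16 and 48 of them, beside 376 and 1756 of 15919. Leaving out 1 library moved the edgeR count in parental tumors between 1 (without parental GC tumor 4 or 5) and 8 (without parental GC tumor 1) and the total of 37 in GR KO tumors between 20 (without GR KO GC tumor 3) and 41 (without GR KO control tumor 4). For the difference between the genotypes, edgeR called 0 of the 167, beside 31 of 15919 genes. An unadjusted p under 0.05 from edgeR was found for 33 of the 167, beside 3192 of 15919. DESeq2 called 11 of the 167, beside 784 of 15919. Of the 167, edgeR called 15 without GR KO control tumor 4, and 1 without parental GC tumor 3 or without GR KO GC tumor 2. Whether any list gene was called for a different GC effect thus depended on the tool and on single libraries. Between control tumors 10 of the 167 differed by edgeR, beside 358 of 15919 (24 of the 167 and 1001 of 15919 by DESeq2). Of the 10, 7 were higher in GR KO tumors, led by *Ncr1* (1.71), *Tnfrsf18* (1.32), *Itgax* (1.12) and *Laptm5* (0.99). The 3 lower were *Nr4a2* (-1.22), *Krt1* (-1.21) and *Col3a1* (-0.997). The edgeR count was 25 without GR KO control tumor 4 and between 1 and 5 without any other 1 of the 10 tumors. Between GC-treated tumors it was 0, beside 101 of 15919 (38 of the 167 with an unadjusted p under 0.05). DESeq2 called 6 of the 167, beside 293 of 15919. There the edgeR count was 1 without parental GC tumor 1, without parental GC tumor 3 or without GR KO GC tumor 2.

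In cultures, 63 of the list genes were tested. With GC 1 was called in parental cells, *Cd24a* (1.52), and 0 without any 1 of the 5 libraries, and 0 in GR KO cells (2 with an unadjusted p under 0.05, 0 by DESeq2). GR KO cells in DMSO differed from parental cells in 13 of the 63, beside 1030 of 12525 genes tested, with *Cd24a* (2.27) and the TIGIT ligand *Pvr* (0.78) higher and 11 lower, among them *Col1a1* (-4.30), *Tap1* (-2.57) and *Tnfrsf9* (-2.15). *Nlrc5*, *Dcn* and *S100b* were also lower, being at 0 in the GR KO cultures with DMSO. By list, 3 of 17 interferon gamma, 3 of 6 fibroblast, 2 of 4 melanocyte and 2 of 4 TIGIT family genes were among them. So were 1 of 3 CD28 and B7, 1 of 2 TNF receptor and 1 of 2 myeloid checkpoint genes, but 0 of 5 PD-1 pathway genes.

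How the checkpoint genes vary among themselves was described by Pearson's r of log2(CPM + 1) over the 20 tumors, which share groups, depth and tissue composition and are not independent of them. *Cd274* and its neighbor *Pdcd1lg2* had an r of 0.0889. The highest value among the 7 genes was 0.617 for *Cd276* with *Cd86*, and *Cd86* with *Havcr2* gave 0.506. *Cd276* had 0.709 with the fibroblast sum, -0.664 with the pan-leukocyte sum and -0.655 with the monocyte and macrophage sum. *Pdcd1lg2* had 0.580 with the dendritic cell sum, most of which was *Fscn1*, a gene also read in the cultured cancer cells. *Cd274* had 0.411 with the T cell sum.

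Over all genes tested in tumors, the pattern most like *Cd274* was that of *Was* (r 0.878), followed by *Pak3* (0.847). *Pdcd1lg2* was most like *Cish* (0.861) and *Arhgap8* (0.813), and *Cd276* most like *Samd4b* (0.921) and *Slc35a1* (0.914). For *Cd80* these were *Kif17* (0.779) and *Fhit* (0.760). *Havcr2* was most like *Mlf1* (0.770) and *Klra8* (0.765), and *Pdcd1* most like *Rasl12* (0.736) and *Leng8* (0.701). Each is the top of 15919 values over 20 tumors and is given as a description.

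On GRCm38, *Cd274* (ENSMUSG00000016496) lies on chromosome 19 from 29367455 to 29388095 and *Pdcd1lg2* (ENSMUSG00000016498) from 29410919 to 29471161, both on the plus strand. *Cd276* (ENSMUSG00000035914) lies on the minus strand of chromosome 9 from 58524298 to 58555437. Chromosome 16 holds *Cd80* (ENSMUSG00000075122, plus, 38455561 to 38496335), *Cd86* (ENSMUSG00000022901, minus, 36603869 to 36666081) and *Tigit* (ENSMUSG00000071552, minus, 43648867 to 43664146). *Pdcd1* (ENSMUSG00000026285) is on the minus strand of chromosome 1 from 94038305 to 94052553 and *Havcr2* (ENSMUSG00000020399) on the plus strand of chromosome 11 from 46454935 to 46481255. *Lag3* (ENSMUSG00000030124) is on the minus strand of chromosome 6 from 124904361 to 124911705, and *Ido1* (ENSMUSG00000031551) on that of chromosome 8 from 24584136 to 24597009. In the GENCODE M21 annotation, 3 of the 10 overlap a gene on the opposite strand, *Cd274* with 511 and *Cd276* with 416 shared exon bases, none of them in the last 500 exon bases, and *Pdcd1lg2* with 0.

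*Cd274* and *Pdcd1lg2* are neighbors whose levels hardly went together over the 20 tumors (r 0.0889), one also read in cultured cancer cells and the other not, so their promoters are shown. RefSeq (GRCm38.p6) windows of 300 bases were held for 7 of the 10 genes, and none for *Lag3*, *Cd86* and *Ido1*. The motifs searched on both strands were the interferon gamma activated site (GAS) TTCNNNGAA, found in 8.30% of 32851 promoters of this length, the core of the interferon-stimulated response element (ISRE) GAAANNGAA in 8.56%, and the core of the GC receptor site AGAACA in 19.0%. They were chosen after the windows had been read. The *Cd274* window, chr19:29367188-29367487 on the plus strand, held 1 ISRE core. The *Pdcd1lg2* window, chr19:29410669-29410968 on the plus strand, held 1 GC receptor core. *Pdcd1* and *Cd80* held 2 GC receptor cores each, and the windows of *Cd276*, *Havcr2* and *Tigit* held none of the motifs. Capitals mark the matches, which are descriptions of letters and not of binding.
Cd274: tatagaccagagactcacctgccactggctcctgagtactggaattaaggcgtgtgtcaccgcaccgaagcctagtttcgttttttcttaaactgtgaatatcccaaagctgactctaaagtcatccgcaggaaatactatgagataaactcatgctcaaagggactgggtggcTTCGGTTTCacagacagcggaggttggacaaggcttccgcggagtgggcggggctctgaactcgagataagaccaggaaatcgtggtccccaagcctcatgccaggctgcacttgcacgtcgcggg
Pdcd1lg2: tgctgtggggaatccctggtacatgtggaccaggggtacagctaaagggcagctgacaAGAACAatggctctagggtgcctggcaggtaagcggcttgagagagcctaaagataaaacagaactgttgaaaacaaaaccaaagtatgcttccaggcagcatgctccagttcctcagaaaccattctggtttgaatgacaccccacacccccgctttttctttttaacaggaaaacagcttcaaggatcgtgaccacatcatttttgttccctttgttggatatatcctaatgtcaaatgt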

How the data were processed

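Bulk 3′ RNA libraries of 20 tumors and 11 cultures were analysed. The authors deposited raw counts per gene as integers, made with featureCounts and the Ensembl annotation from reads that Trim Galore had trimmed and STAR had aligned (GRCm38). The version and strand setting of featureCounts were not stated. CPM, TMM factors and log2 values were computed here. Groups came from the labels.

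The checkpoint genes and the gene lists were chosen with earlier results of these data known. Tests used edgeR 4.0.16 (quasi-likelihood, R 4.3.3, limma 3.58.1) on all 4 groups of tumors or of cultures, or on all 31 libraries for tumors against cultures, with Benjamini-Hochberg adjustment over all genes tested. The paper names DESeq2, run here in version 1.42.0 as an alternative. Intervals are 95%. Exact permutation tests compared means of log2(CPM + 1) over 252 divisions of 5 against 5 tumors, with a smallest p of 0.00794. Ratios to lists are log2 CPM over summed CPM and were not tested. The pipeline was tested on simulated counts.

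The genes named are the 10 checkpoint genes, up to 4 called list genes for each direction and contrast with the largest changes, the most abundant gene of each lineage list, partners of described genes, the 2 genes most like each tested gene (for *Cd86* they are not reported here), and *Nr3c1*, *Tsc22d3* and *Lrrc32* as checks. Genes named beyond this rule as examples or as markers at 0 were chosen after their values were seen. Symbols and positions came from GENCODE M21, promoters from RefSeq.

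The alternatives were DESeq2, edgeR with the size factors of DESeq2, dropping the low-count filter, no minimum fold change, the replicate number as a block, a pseudocount of 0.1, other lists for the ratios, and leaving out each library. The labels do not say whether samples with the same replicate number belong together. Deviations from the group mean of tumors with the same number had a mean r of 0.0583 over 30 pairs (-0.54 to 0.41, 16 above 0.1), with all 5 pairs of parental GC and GR KO GC tumors positive, and those of cultures 0.0198 over 15 (-0.55 to 0.62). The block had been planned before the files were seen. No 2 libraries of a group were copies, the chi-square per gene lying between 8.28 and 403 for the 50 pairs. No library was left out.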

Additional observations from a re-analysis of the deposited data

Results flagged for a closer look

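The highest and lowest library of each group of 5 tumors was compared with its nearest neighbor, and it was flagged when that gap took up more than 0.71 of the range of the group. Of 56 groups tested 11 were flagged, and chance flags about 1 in 20 groups of continuous values. That rate does not hold for 7 of the flags, which are single tumors with counts in groups otherwise at 0, where the gap is the whole range by construction. The flags for *Lag3* are parental control tumor 5 at 0.0745 CPM (2 counts), parental GC tumor 4 at 0.0492 CPM (1 count), GR KO control tumor 2 at 0.0597 CPM (1 count) and, in a group with counts in other tumors too, GR KO GC tumor 4 at 1.38 CPM (26 counts). Those for *Tigit* are parental GC tumor 3 at 0.309 CPM (7 counts) and GR KO GC tumor 2 at 1.83 CPM (34 counts). Those for *Ido1* are parental GC tumor 3 at 0.177 CPM (4 counts) and GR KO control tumor 5 at 0.737 CPM (12 counts). *Cd80* stood apart in parental GC tumor 4 at 3.00 CPM (61 counts) and in GR KO control tumor 4 at 1.58 CPM (41 counts). The summed monocyte and macrophage list was far above the rest of its group in GR KO GC tumor 2, at 8992 CPM. None of the 11 tests of whether the GC effect on a checkpoint gene differs between the genotypes, in tumors or cultures, was past the threshold.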

How the results depend on the processing

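The 7 checkpoint genes tested in tumors and the 4 tested in cultures gave 65 results, 12 of them called, and these were fitted 947 times under an alternative. In 890 fits the direction and the call were as reported, in 6 a call was gained, in 0 lost, and in 51 the sign changed without a call in either fit. The 6 gained calls are given in the report (*Cd276* in GR KO tumors and cultures and *Cd80* without GR KO control tumor 4). The cause was not tested for any change listed here, except that leaving out a library also leaves fewer samples. The 40 permutation results kept their side of 0.05 with a pseudocount of 0.1. Of 24 ratios, 22 moved by less than the SD with another list.

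The number of genes called moved by more than 1.5 times with DESeq2, to 376 (GC in parental tumors), 1756 (GC in GR KO tumors), 784 (their difference), 1001 (GR KO against parental control tumors), 293 (GR KO against parental GC tumors), 251 (GC in parental cells) and 128 (difference in cells). Without the low-count filter the differences gave 49 in tumors and 64 in cells.

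With the replicate block, 144 genes were called for the difference in tumors, 160 between GC-treated tumors and 63 for GC in parental cells. With the replicate block the sign changed, with no call, for *Cd80* in the difference of tumors (-1.04), *Cd86* (-0.0340) and *Cd274* (0.0337) between control tumors, *Havcr2* with GC in GR KO cells (0.000520) and *Cd274* in the difference of cells (0.57).

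With 1 library left out, the number called ranged from 60 to 178 for GC in parental tumors, 303 to 2411 for GC in GR KO tumors, 0 to 1284 for their difference, 61 to 1762 between control tumors, 40 to 114 between GC-treated tumors, 31 to 78 for GC in parental cells, 17 to 43 for the difference in cells and 594 to 916 between lines in DMSO. The highest counts for GC in GR KO tumors, the difference and the control tumors came without GR KO control tumor 4. A lone library left in a group was assumed to vary like the other groups.

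Log2 values whose sign changed with 1 library left out were, with GC in parental tumors, *Pdcd1* (-0.0757 to 0.35) and *Cd276* (-0.25 to 0.0348); with GC in GR KO tumors, *Pdcd1* (-0.28 to 0.0859), *Cd274* (-0.39 to 0.13) and *Lrrc32* (-0.26 to 0.16); in the difference, *Cd80* (-3.70 to 1.17) and *Pdcd1lg2* (-0.34 to 0.24); between control tumors, *Havcr2* (-0.0310 to 0.41), *Cd86* (-0.19 to 0.28), *Cd80* (-4.50 to 0.37), *Cd274* (-0.53 to 0.0564) and *Lrrc32* (-0.15 to 0.14); and between GC-treated tumors, *Nr3c1* (-0.17 to 0.14). In cells they were *Cd80* (-0.68 to 0.60) with GC in parental cells, *Tsc22d3* (-0.19 to 0.0697), *Havcr2* (-0.21 to 0.26), *Cd80* (-0.22 to 0.88), *Nr3c1* (-0.29 to 0.0471) and *Cd274* (-1.02 to 0.0257) with GC in GR KO cells, *Cd276* (-0.18 to 0.40), *Cd80* (-1.11 to 0.44) and *Cd274* (-0.82 to 0.23) in the difference, and *Cd80* (-1.06 to 0.49) between lines in DMSO.

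Depth limits *Lag3*, *Tigit* and *Ido1*, which were at or under 3 counts in most libraries, *Cd80* in tumors (14 of 20 above the floor) and *Cd274* in cultures (7 of 11).

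Calls that changed with 1 library left out were those of *Cd276* (0.63 to 0.97) and *Cd80* (0.64 to 4.90) with GC in GR KO tumors, *Cd80* between control tumors (-4.50 to 0.37) and between GR KO control tumors and cells (-5.44 to -0.74), and, among the checks, *Nr3c1* with GC in GR KO tumors (0.50 to 0.80), between control tumors (-1.09 to -0.94, not called in 8 of 10 fits) and between parental tumors and cells (0.62 to 0.78, not called in 7 of 8), and *Lrrc32* in the difference of tumors (-1.64 to -1.22). Among the checks, calls were also gained on all libraries by *Lrrc32* with GC in parental cells (-1.83 with DESeq2 and -1.83 without the filter) and in the difference of tumors (-1.42 with DESeq2) and by *Nr3c1* between lines in DMSO (-0.67 with DESeq2), and *Nr3c1* between parental tumors and cells lost its call without the filter (0.64).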
